A study of Homo sapiens with 6 samples.

Results

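The 10 genes described here encode enzymes that make, activate or inactivate androgens: HSD3B1, AKR1C3, SRD5A1 and SRD5A3 on the side of synthesis, AKR1C1 and AKR1C2 on the side of reductive inactivation, and UGT2B15, UGT2B17, UGT2B11 and UGT2B28 on the side of conjugation. They were taken by name from the AKR1C, UGT2B, HSD3B and SRD5A families, with earlier results of these data known. They are 10 of the 60658 genes listed for each library. Their level was read in CabR, TaxR and C4-2B and in CTXR, DTXR and DU145, 6 human prostate cancer cell lines with 1 library each. C4-2B descends from LNCaP cells, responds to androgen and is castration-resistant, whereas DU145 carcinoma cells need no androgen to grow. TaxR is the docetaxel-resistant subline of C4-2B and was kept under 5 nM docetaxel, and CabR is the cabazitaxel-resistant subline obtained from TaxR and was kept under 5 nM cabazitaxel. DTXR is the matching docetaxel-resistant subline of DU145, and CTXR is the cabazitaxel-resistant subline obtained from DTXR, under 5 nM of the same drugs. The sublines of a lineage are therefore successive steps and not separate derivations from the parental line. Docetaxel and cabazitaxel are taxanes, which stabilise microtubules. All 6 lines grew in complete RPMI medium with fetal bovine serum, which carries steroids. Apart from the drug a subline was kept under, none was treated before harvest. In the sublines, resistance and the drug they were kept under cannot be told apart. The labels do not say whether a subline is a single clone, and the title of the TaxR sample carries the word old without explanation.

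Androgens reach a prostate cancer cell as adrenal precursors or arise in the cell itself. HSD3B enzymes turn dehydroepiandrosterone into androstenedione, AKR1C3 reduces androstenedione to testosterone, and steroid 5-alpha-reductases make dihydrotestosterone, the strongest natural androgen. AKR1C2 reduces dihydrotestosterone to a weak androgen, and UGT2B enzymes attach glucuronic acid to dihydrotestosterone and its metabolites, after which they are inactive and leave the cell. In androgen-responsive prostate cells UGT2B15 and UGT2B17 are known to be repressed by androgens.

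Values are FPKM, fragments per kilobase of transcript scaled to the size of the library, as deposited. A gene was counted as measured when it reached 1 FPKM in at least 1 of the 6 libraries, and 17436 genes did. A difference is given as the log2 ratio of (FPKM + 1), and a gene is called higher or lower where that ratio is at least 1 in size. The added 1 understates the change of genes at low FPKM. Each line has 1 library, so differences between lines carry neither a replicate check nor a p-value. Total FPKM per library ranged between 711766 and 818430, with 13418 to 14270 genes at 1 FPKM or more. The most frequent low FPKM value, scaled by transcript length, was taken to stand for a single fragment. It put 1 FPKM at about 13.8 to 21.0 fragments per kilobase of transcript, depending on the library. All 9 luminal prostate markers reached 1 FPKM in CabR, TaxR and C4-2B, against 3 of 9 in CTXR, DTXR and DU145. The TaxR library stood apart in 1 respect, in that all 10 markers chosen for the DU145 side reached 1 FPKM there, against 3 of 10 in CabR and 2 of 10 in C4-2B. Their summed level was 46.9 FPKM in CabR, 100.0 in TaxR and 68.9 in C4-2B, against 3914 in CTXR, 3200.3 in DTXR and 2950 in DU145. The TaxR level of the 5 of these markers that are nearly silent in C4-2B was a median 1.25% of their DU145 level (lowest 0.362%, highest 2.03%). Where these marker transcripts in TaxR came from was not tested. If they were DU145 transcripts at that share, these would add at most 0.232 FPKM to any of the 10 genes in TaxR (SRD5A1). They would add nothing to the UGT2B genes or HSD3B1.

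The 4 UGT2B genes lie in 1 cluster on chromosome 4 (GRCh38, GENCODE 29) and form a pair of near-identical pairs, which sets how far their values can be told apart. The coding sequences of UGT2B15 and UGT2B17 were 96.5% identical, with 55 of 1590 bases different, and those of UGT2B11 and UGT2B28 were 97.0% identical, with 47 of 1587 different. Across the pairs the identity was 83.9% to 85.1%. The first 150 coding bases of each gene are printed to show how little sequence separates the members of a pair, with the bases that differ from the partner in capitals. UGT2B15 starts in chr4:68670469-68670618 on the minus strand, UGT2B17 in chr4:68568335-68568484 on the minus strand, UGT2B11 in chr4:69214573-69214722 on the minus strand and UGT2B28 in chr4:69280501-69280650 on the plus strand. Within this stretch the first pair differed at 5 bases and the second at 7.
UGT2B15: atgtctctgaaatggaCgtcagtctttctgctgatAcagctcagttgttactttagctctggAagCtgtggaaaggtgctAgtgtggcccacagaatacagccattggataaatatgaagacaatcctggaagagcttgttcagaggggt
UGT2B17: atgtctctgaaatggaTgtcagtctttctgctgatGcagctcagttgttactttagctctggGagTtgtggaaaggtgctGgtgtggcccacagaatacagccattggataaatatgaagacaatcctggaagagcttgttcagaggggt
UGT2B11: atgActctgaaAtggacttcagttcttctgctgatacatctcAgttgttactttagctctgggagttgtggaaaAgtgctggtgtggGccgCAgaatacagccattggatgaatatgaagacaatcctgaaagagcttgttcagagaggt
UGT2B28: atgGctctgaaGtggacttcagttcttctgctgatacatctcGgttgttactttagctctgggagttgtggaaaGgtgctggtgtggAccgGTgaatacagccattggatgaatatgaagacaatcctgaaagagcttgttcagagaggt

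The AKR1C genes are closer still. AKR1C1 and AKR1C2 differed at 19 of 969 coding bases, an identity of 98.0%, while AKR1C3 was 91.4% identical to AKR1C1 and 91.0% to AKR1C2. Their first 80 coding bases are printed for the same reason, AKR1C1 from chr10:4963445-4963524 on the plus strand, AKR1C2 from chr10:5003756-5003835 on the minus strand and AKR1C3 from chr10:5094445-5094524 on the plus strand. Capitals in AKR1C1 and AKR1C2 mark the 1 base at which they differ, and capitals in AKR1C3 mark the 10 bases at which it differs from AKR1C1.
AKR1C1: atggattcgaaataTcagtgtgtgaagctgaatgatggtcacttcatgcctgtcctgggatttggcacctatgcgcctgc
AKR1C2: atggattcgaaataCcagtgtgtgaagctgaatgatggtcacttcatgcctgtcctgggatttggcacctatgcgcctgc
AKR1C3: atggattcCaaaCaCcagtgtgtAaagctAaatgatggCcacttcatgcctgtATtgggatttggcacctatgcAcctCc

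Cut into windows of 100 bases, 20.7% of the coding windows of AKR1C1, 26.4% of AKR1C2 and 9.77% of AKR1C3 were found unchanged in another gene of the family. For UGT2B15 and UGT2B17 the share was 16.9% each, for UGT2B11 it was 12.0% and for UGT2B28 6.25%. No 100-base window of HSD3B1, SRD5A1 or SRD5A3 was shared within its family, and SRD5A1 and SRD5A3 were only 56.8% identical over the aligned coding bases. With windows of 50 bases the shares were larger, at 54.3% for AKR1C1, 57.1% for AKR1C2 and 23.0% for AKR1C3. They were 36.1% for UGT2B15, 36.5% for UGT2B17, 49.0% for UGT2B11 and 36.2% for UGT2B28. At that length HSD3B1 shared 8.79% of its windows, SRD5A1 5.22% and SRD5A3 none. The authors' software divided the fragments of shared windows by a model, so the split within a pair is uncertain for the AKR1C and UGT2B genes, and sums over a pair or family are given beside the single values. SRD5A3 overlaps the antisense gene SRD5A3-AS1, and with the use of strand in counting unknown here, reads of these 2 genes may not have been separated.

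**Figure D1:**
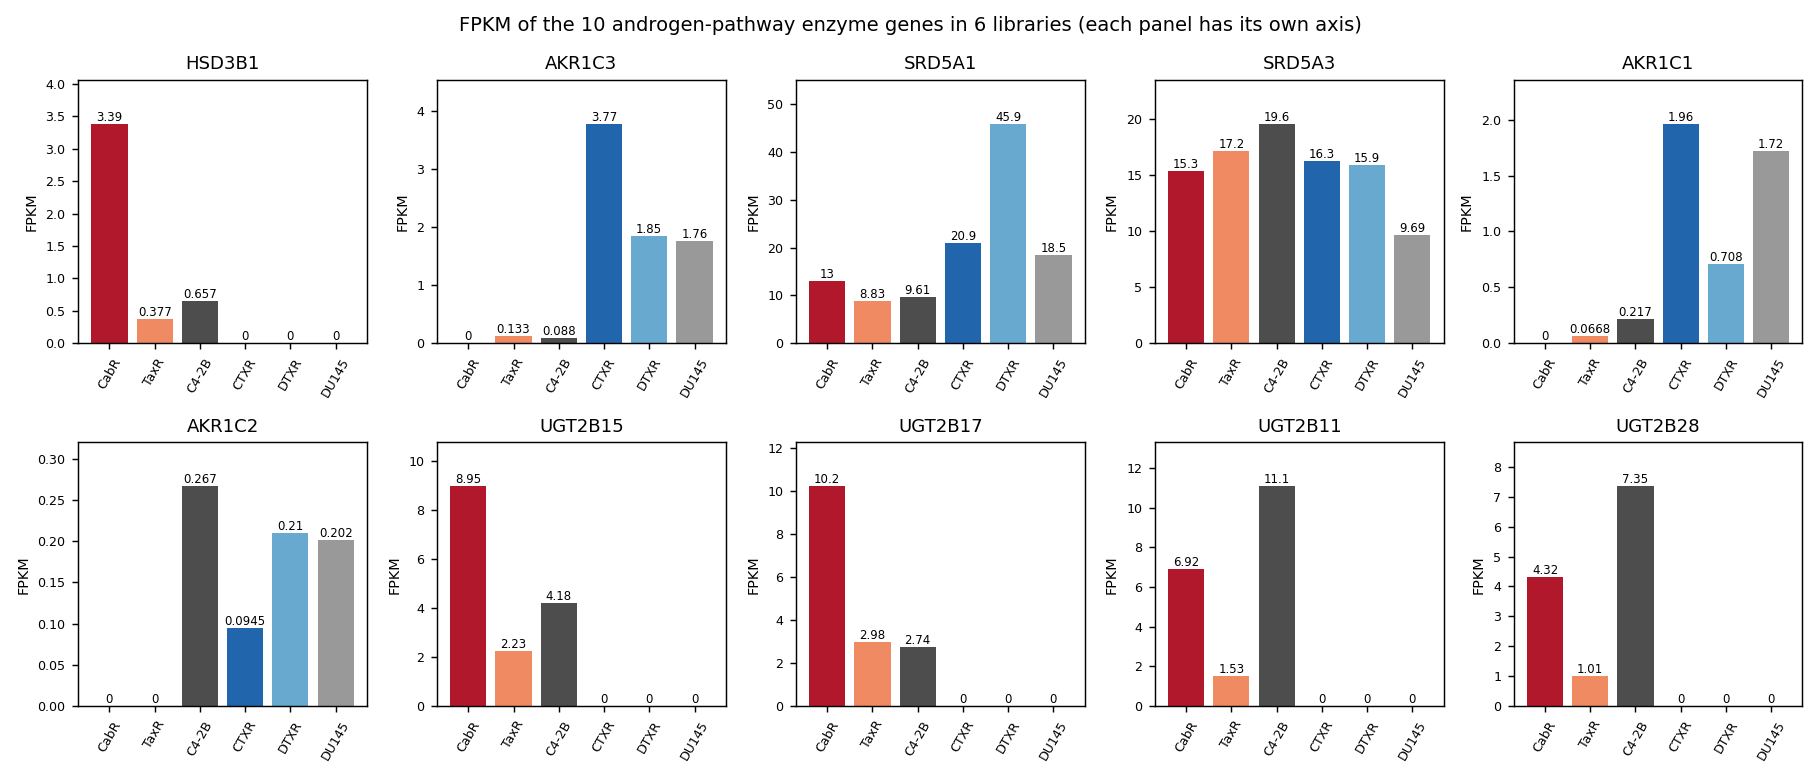
FPKM of each of the 10 genes (vertical axis, one scale per gene) in the CabR, TaxR, C4-2B, CTXR, DTXR and DU145 libraries (horizontal axis), with the value printed over each bar and 1 library per bar. The UGT2B genes and HSD3B1 have bars in the C4-2B lineage alone, AKR1C1 and AKR1C3 are highest in the DU145 lineage, and the highest bar of SRD5A1 is 45.9 FPKM in DTXR.

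Of the androgen-making enzymes, HSD3B1 was detected in the C4-2B lineage alone, AKR1C3 reached 1 FPKM in the DU145 lineage alone, and the reductases were expressed in all 6 libraries. HSD3B1 (ENSG00000203857, chr1:119507198-119515054, plus strand), the isoenzyme that peripheral tissues use to make androstenedione, had 3.39 FPKM in CabR, 0.377 in TaxR and 0.657 in C4-2B, and it was listed at 0 in CTXR, DTXR and DU145. CabR was the only library in which it reached 1 FPKM. It was called higher in CabR than in TaxR (log2 ratio 1.67, a plain FPKM ratio of 8.98) and than in C4-2B (1.41, plain ratio 5.16), and the ratio of TaxR to C4-2B was -0.27. These comparisons share libraries and are not independent of each other. HSD3B2, the adrenal and gonadal isoenzyme, was listed at 0 in all 6 libraries, so the HSD3B level rested on HSD3B1 alone. Of the measured genes, 99.6% had a lower ratio than HSD3B1 for CabR against TaxR and 99.0% for CabR against C4-2B.

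The coding genes around HSD3B1 gave a mixed picture. Of the 30 measured coding genes within 5 megabases, 2 were called higher in CabR than in TaxR and none lower, with a median ratio of 0.11. Of all measured genes, 1.75% were higher and 1.84% lower in that comparison. Against C4-2B none of the 30 was higher in CabR and 3 were lower, with a median of -0.05. There 2.67% of all measured genes were higher and 6.2% lower.

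AKR1C3 (ENSG00000196139, chr10:5035354-5107686, plus strand), the enzyme that reduces androstenedione to testosterone, was a DU145-lineage transcript. It had 3.77 FPKM in CTXR, 1.85 in DTXR and 1.76 in DU145, against a listed 0 in CabR, 0.133 in TaxR and 0.0880 in C4-2B. The ratio of CTXR was 0.75 to DTXR and 0.79 to DU145, both under the size rule, and DTXR stood at 0.04 to DU145. All 3 values in the C4-2B lineage were under 1 FPKM, where the rule cannot be passed. If the DU145 share described above, whose source was not tested, is assumed, 0.0220 of the 0.133 FPKM in TaxR would be DU145 transcripts.

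SRD5A1 (ENSG00000145545, chr5:6633343-6674386, plus strand), the 5-alpha-reductase known to prefer androstenedione in castration-resistant cells, was expressed in every library. It had 13.0 FPKM in CabR, 8.83 in TaxR and 9.61 in C4-2B, and 20.9 in CTXR, 45.9 in DTXR and 18.5 in DU145. The order of its levels was DTXR, CTXR, DU145, CabR, C4-2B and TaxR, and without replicates the spread that would separate neighbours in that order is unknown. SRD5A1 was called higher in DTXR than in DU145 (1.26) and lower in CTXR than in DTXR (-1.10), and CTXR stood at 0.17 to DU145. In the C4-2B lineage no ratio was past the rule, with 0.51 for CabR to TaxR, 0.40 for CabR to C4-2B and -0.11 for TaxR to C4-2B.

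SRD5A1 did not move alone on chromosome 5. Of its 17 measured coding neighbours within 5 megabases, 15 had a ratio above 0 for DTXR against DU145, and their median was 0.54, while 52.5% of the 13442 measured coding genes were above 0, with a median of 0.03. By the size rule 3 of the 17 were higher and 1 was lower, where 5.37% of all measured genes were higher and 5.1% lower. MTRR, methionine synthase reductase, had 25.4 FPKM in CTXR, 76.5 in DTXR and 29.9 in DU145 (ratio of DTXR to DU145 1.33). NSUN2, an RNA methyltransferase gene that starts beside SRD5A1, had 53.8 FPKM in CTXR, 144 in DTXR and 98.8 in DU145, under the rule at 0.54. On the other side TENT4A had 20.4, 34.9 and 18.9 FPKM in CTXR, DTXR and DU145 (0.85). For CTXR against DTXR 2 of the 17 were above 0, 7 were called lower and the median was -0.90. Of all measured genes 5.25% were called lower there. For CTXR against DU145 the median was -0.11, with 5 of 17 above 0. What the shift of the neighbours contributes to the SRD5A1 values was not tested.

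**Figure D2:**
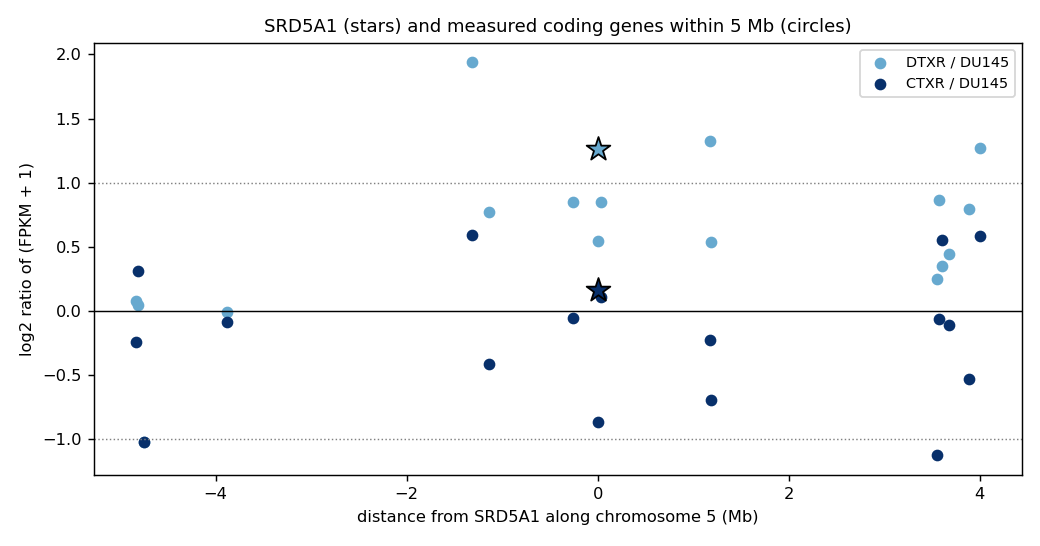
log2 ratio of (FPKM + 1) of SRD5A1 (stars) and of the 17 measured coding genes within 5 megabases (circles), against distance from SRD5A1 along chromosome 5 in megabases, for DTXR over DU145 and for CTXR over DU145, 1 library per line; dotted lines mark ratios of 1 and -1. In DTXR 15 of the 17 neighbours lie above 0, and in CTXR 5 of them do.

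SRD5A3 (ENSG00000128039, chr4:55346109-55373096, plus strand), a polyprenol reductase of protein glycosylation that has also been reported to reduce testosterone, differed little on the C4-2B side. It had 15.3 FPKM in CabR, 17.2 in TaxR and 19.6 in C4-2B, with ratios of -0.33 for CabR and -0.18 for TaxR to C4-2B. In the DU145 lineage it had 16.3 FPKM in CTXR, 15.9 in DTXR and 9.69 in DU145. Its ratios to DU145 were 0.69 in CTXR and 0.66 in DTXR, both under the size rule. Of its 24 measured coding neighbours within 5 megabases, 9 were above 0 for DTXR against DU145, with a median of -0.03. The order of both reductases, per kilobase, differed between the lineages: the FPKM of SRD5A1 was 0.850, 0.514 and 0.490 times that of SRD5A3 in CabR, TaxR and C4-2B, and 1.29, 2.88 and 1.91 times in CTXR, DTXR and DU145. The summed FPKM of both was 28.4 in CabR, 26.0 in TaxR and 29.2 in C4-2B, and 37.2 in CTXR, 61.8 in DTXR and 28.2 in DU145. SRD5A2, the prostatic isoenzyme of normal tissue, was listed at 0 in 5 libraries and had 0.0212 FPKM in CTXR.

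The reductive inactivation enzymes were low everywhere. AKR1C1 (ENSG00000187134, chr10:4963253-4983283, plus strand), best known for inactivating progesterone, had 1.96 FPKM in CTXR, 0.708 in DTXR and 1.72 in DU145. In the C4-2B lineage it was listed at 0 in CabR and had 0.0668 FPKM in TaxR and 0.217 in C4-2B. Its ratio was -0.67 for DTXR to DU145, 0.13 for CTXR to DU145 and 0.80 for CTXR to DTXR, none past the rule. AKR1C2 (ENSG00000151632, chr10:4987400-5018031, minus strand), which reduces dihydrotestosterone, reached 1 FPKM in no library and is the 1 of the 10 genes that was not measured. It was listed at 0 in CabR and TaxR and had 0.267 FPKM in C4-2B, 0.0945 in CTXR, 0.210 in DTXR and 0.202 in DU145. Given the 98.0% identity with AKR1C1, the split between these 2 genes is the least certain of all.

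Summed over the 3 AKR1C genes, the level was 5.83 FPKM in CTXR, 2.76 in DTXR and 3.68 in DU145, and 0.200 in TaxR and 0.571 in C4-2B, with CabR listed at 0. FPKM is per transcript length, and the GENCODE 29 transcripts with the longest coding sequence span 6705 bases for AKR1C1, 3756 for AKR1C2 and 1807 for AKR1C3, so a fragment assigned to AKR1C3 adds more to the sum than one assigned to AKR1C1. The sum therefore still depends on the division, and its ratio was 0.86 for CTXR to DTXR, 0.55 for CTXR to DU145 and -0.31 for DTXR to DU145. AKR1C3 took more of it than AKR1C1 in every library of the DU145 lineage, with 1.92, 2.61 and 1.03 times the FPKM of AKR1C1 in CTXR, DTXR and DU145. AKR1C4, the liver isoenzyme, was listed at 0 in all 6 libraries, and the 5 other AKR1C genes and pseudogenes listed reached 0.140 FPKM at most.

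The UGT2B genes, which carry out glucuronidation, made up 4 of the 5 genes called in the C4-2B lineage and were listed at 0 in CTXR, DTXR and DU145. UGT2B15 (ENSG00000196620, chr4:68646630-68670628, minus strand) conjugates dihydrotestosterone and androstanediol. It had 8.95 FPKM in CabR, 2.23 in TaxR and 4.18 in C4-2B. It was called higher in CabR than in TaxR (1.62), stood at 0.94 for CabR to C4-2B, just under the rule, and at -0.68 for TaxR to C4-2B. UGT2B17 (ENSG00000197888, chr4:68537184-68568527, minus strand), which conjugates testosterone as well as dihydrotestosterone, had 10.2 FPKM in CabR, 2.98 in TaxR and 2.74 in C4-2B. It was called higher in CabR than in TaxR (1.50) and than in C4-2B (1.58), and stood at 0.09 for TaxR to C4-2B.

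The other pair had its highest level in the parental line. UGT2B11 (ENSG00000213759, chr4:69199951-69214731, minus strand), whose action on steroids is less well established, had 6.92 FPKM in CabR, 1.53 in TaxR and 11.1 in C4-2B. It was called lower in TaxR than in C4-2B (-2.25) and higher in CabR than in TaxR (1.65), with CabR at -0.61 to C4-2B. UGT2B28 (ENSG00000135226, chr4:69280499-69295050, plus strand), which conjugates androgens and estradiol, had 4.32 FPKM in CabR, 1.01 in TaxR and 7.35 in C4-2B. It too was called lower in TaxR than in C4-2B (-2.05) and higher in CabR than in TaxR (1.40), with CabR at -0.65 to C4-2B. Of the measured genes, 0.528% had a lower ratio than UGT2B11 for TaxR against C4-2B and 0.665% a lower one than UGT2B28. In bulk RNA, fewer cells that express a gene and less of its RNA in each cell cannot be told apart.

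The makeup of the family differed between the lines more across the pairs than inside the UGT2B11 pair. UGT2B11 had 1.60 times the FPKM of UGT2B28 in CabR, 1.52 times in TaxR and 1.51 times in C4-2B. UGT2B17 had 1.14 times the FPKM of UGT2B15 in CabR, 1.33 times in TaxR and 0.656 times in C4-2B. UGT2B15 and UGT2B17 together had 19.2 FPKM in CabR, 5.21 in TaxR and 6.92 in C4-2B. They made up 63.0% of the 4-gene sum in CabR and 67.2% in TaxR, against 27.3% in C4-2B. UGT2B11 and UGT2B28 together had 11.2 FPKM in CabR, 2.54 in TaxR and 18.4 in C4-2B. The transcripts of UGT2B15 and UGT2B17 have the same length of 2077 bases and those of UGT2B11 and UGT2B28 have 2088 and 1833, so the pair sums depend little on the split inside a pair. Their ratios were 1.35 and -0.67 for CabR to C4-2B and -0.35 and -2.45 for TaxR to C4-2B, each with the UGT2B15 and UGT2B17 pair given first.

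Summed over all 4 genes the level was 30.4 FPKM in CabR, 7.76 in TaxR and 25.3 in C4-2B, so the total in CabR was close to that in C4-2B (0.25) with a different makeup, while the total in TaxR was lower than in C4-2B (-1.59). Of the 8 other UGT2B genes and pseudogenes listed, the highest was UGT2B10 at 0.816 FPKM in CabR, 0.128 in TaxR and 0.455 in C4-2B. UGT2B7, an isoenzyme of liver and kidney, had 0.112 FPKM in CabR and was listed at 0 in the other libraries. The nearest measured coding gene on either flank of the cluster had the same order of levels as UGT2B11 and UGT2B28, highest in C4-2B and lowest in TaxR. The protease gene TMPRSS11E had 1.18 FPKM in CabR, 0.615 in TaxR and 4.13 in C4-2B, called lower in CabR (-1.23) and in TaxR (-1.67) against C4-2B. ODAM, on the other flank, had 1.19 FPKM in CabR, 0.864 in TaxR and 2.73 in C4-2B, with ratios to C4-2B of -0.77 in CabR and -0.999 in TaxR, under the size rule. Their ratios for CabR to TaxR were 0.43 and 0.23. TMPRSS11E lay at -39.6 kilobases from the cluster and ODAM at 901, with minus for lower coordinates. Beyond TMPRSS11E, at -187 kilobases and thus nearer than ODAM, YTHDC1 had 25.3 FPKM in CabR, 22.0 in TaxR and 25.4 in C4-2B. UTP3, beyond ODAM, had 25.9 FPKM in CabR, 26.1 in TaxR and 12.9 in C4-2B, a different order. Of all 23 measured coding neighbours within 5 megabases, 1 lay lower and 1 higher in TaxR than in C4-2B, and none was higher in CabR than in TaxR. The shares of all measured genes were 5.64% lower and 2.52% higher in TaxR than in C4-2B, and 1.75% higher in CabR than in TaxR. Whether the cluster and its neighbours changed together was not tested.

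**Figure D3:**
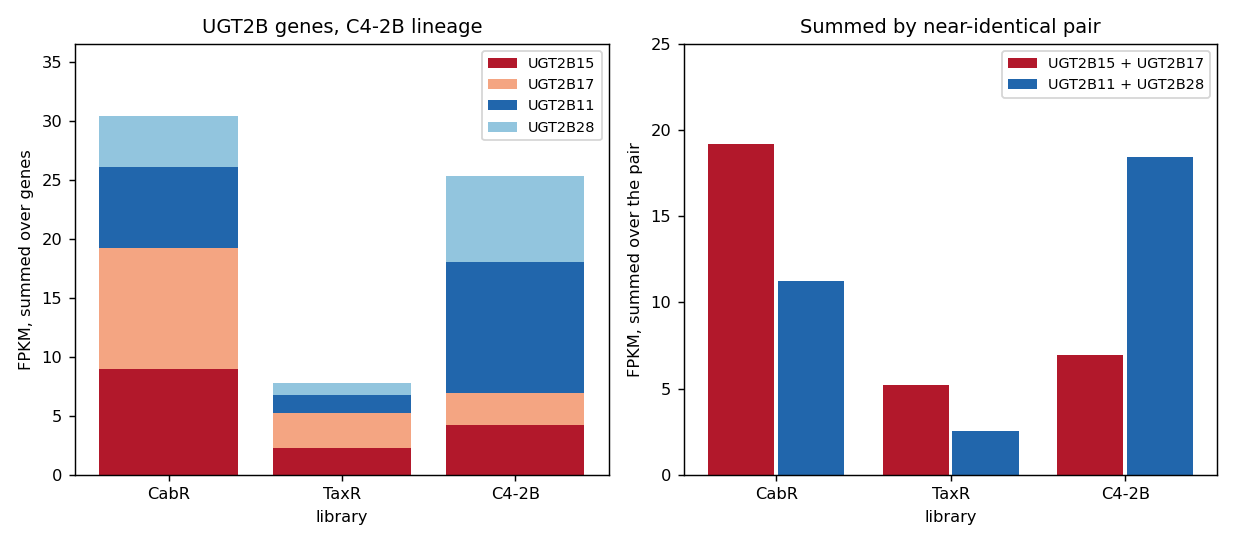
FPKM of the 4 UGT2B genes stacked by library (left) and summed over each near-identical pair (right) in CabR, TaxR and C4-2B, 1 library each. The stacked total is 30.4, 7.76 and 25.3 FPKM in CabR, TaxR and C4-2B, and the UGT2B15 and UGT2B17 pair exceeds the UGT2B11 and UGT2B28 pair in CabR and TaxR but not in C4-2B.

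The 250 bases before the start of 1 gene of each pair are printed to show what short motifs lie there, from the RefSeq promoter table (GRCh38.p14), which held 8 of the 10 genes in 10 windows of 300 bases. UGT2B17 and UGT2B28 had no entry. Each window was searched on both strands for AGAACA, the half-site of androgen response elements, for TGTTTAC, the core that forkhead factors bind, and for TGACNNNGC, the antioxidant response element core. UGT2B15 (chr4:68670653-68670902, minus strand) held AGAACA 172 bases before its start and TGTTTAC on the opposite strand 183 bases before it, which reads as GTAAACA here; both are in capitals. UGT2B11 (chr4:69214749-69214998, minus strand) held TGACNNNGC on the opposite strand 217 bases before its start, in capitals.
UGT2B15 promoter: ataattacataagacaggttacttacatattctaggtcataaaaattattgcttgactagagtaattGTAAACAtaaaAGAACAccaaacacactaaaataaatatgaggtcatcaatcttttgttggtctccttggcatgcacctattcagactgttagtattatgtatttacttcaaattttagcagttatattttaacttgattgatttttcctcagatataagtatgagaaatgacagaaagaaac
UGT2B11 promoter: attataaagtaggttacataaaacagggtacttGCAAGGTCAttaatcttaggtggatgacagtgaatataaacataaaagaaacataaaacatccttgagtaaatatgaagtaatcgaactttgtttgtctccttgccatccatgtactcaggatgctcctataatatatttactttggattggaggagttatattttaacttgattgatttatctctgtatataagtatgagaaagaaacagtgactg

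No other window of the 10 held AGAACA or TGTTTAC, and the window of SRD5A3 also held TGACNNNGC. Among all 35116 promoter windows of the table, 14.8% held AGAACA, 3.42% TGTTTAC and 13.3% TGACNNNGC. A match to such letters is a description of the sequence and not a binding site.

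Counted over the 10 genes, the widest set of calls was between the sublines of C4-2B. In CabR against TaxR, 5 of the 10 were higher (HSD3B1, UGT2B15, UGT2B17, UGT2B11 and UGT2B28) and none lower, where 1.75% of the measured genes were higher and 1.84% lower. Between TaxR and C4-2B, 2 of the 10 were lower in TaxR (UGT2B11 and UGT2B28) and none higher, where 5.64% of the measured genes were lower and 2.52% were higher. In CabR against C4-2B, 2 of the 10 were higher (UGT2B17 and HSD3B1) and none lower, against 2.67% higher and 6.2% lower. The 4 UGT2B genes are neighbours with near-identical sequences and are not 4 separate counts, and the comparisons share the TaxR, C4-2B and CabR libraries. Because the 10 genes were chosen with earlier results of these data known, setting the counts beside the shares is a description and not a test.

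In the DU145 lineage 1 of the 10 was higher in DTXR than in DU145 (SRD5A1) and none lower, where 5.37% of the measured genes were higher and 5.1% lower. In CTXR against DTXR 1 of the 10 was lower (SRD5A1) and none higher, against 5.25% lower and 7.29% higher. In CTXR against DU145 none of the 10 was past the rule, against 7.45% higher and 5.47% lower. With 5 of the 10 genes listed at 0 throughout this lineage and AKR1C2 unmeasured, 4 genes could have passed there. The median ratio of the 9 measured genes was 1.40 in CabR against TaxR, -0.12 in CabR against C4-2B and -0.19 in TaxR against C4-2B. In the DU145 lineage, where 5 of the 9 are listed at 0, such a median is 0 by construction and is not given. The medians over all measured genes were 0.00 in all 6 comparisons, to 2 decimals.

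**Figure D4:**
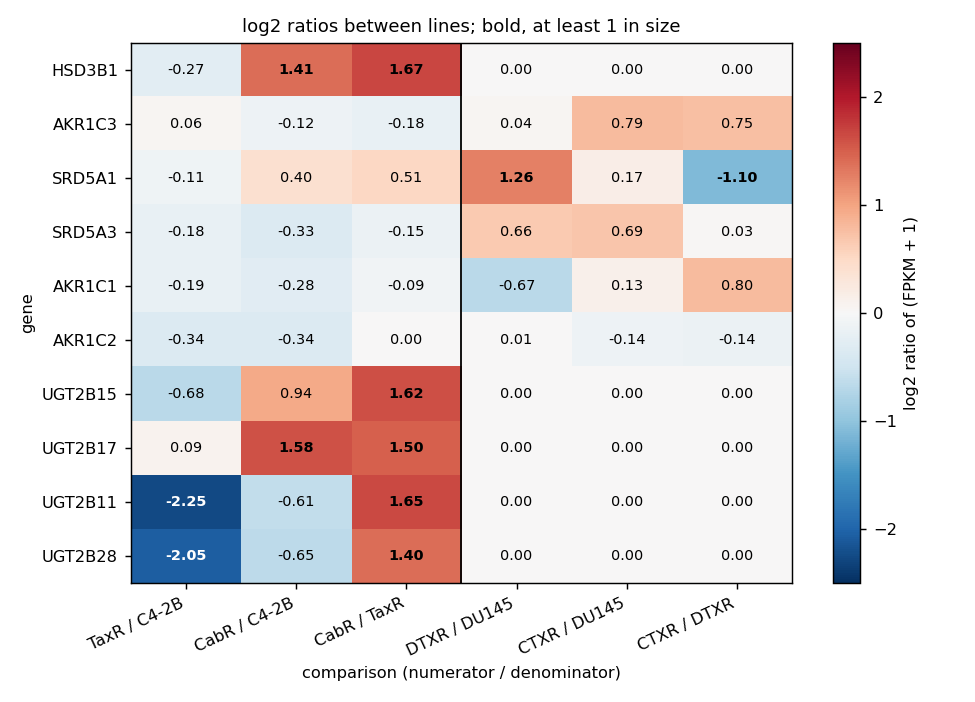
log2 ratio of (FPKM + 1) for each of the 10 genes (rows) in 6 comparisons between lines (columns, numerator over denominator), 3 in each lineage and 1 library per line, with ratios of at least 1 in size in bold. The column of CabR over TaxR holds 5 bold values from 1.40 to 1.67, and the DU145 lineage holds 2, both of SRD5A1, at 1.26 and -1.10.

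Replication of the drug selection exists only across the 2 lineages, and limma was therefore fitted with lineage and resistance as terms. No gene passed an adjusted p of 0.05 in limma (Benjamini-Hochberg over 17436 genes, two-sided) for docetaxel-resistant against parental lines or for cabazitaxel-resistant against parental lines, 0.0% called in each. At an unadjusted p under 0.05 there were 772 and 835 genes, none of them among the 10. The largest differences among the 10 were those of UGT2B11 at -1.13 ± 0.55 (SE) and UGT2B28 at -1.03 ± 0.53 for docetaxel resistance, with limma adjusted p of 0.930 for both, and of UGT2B17 at 0.79 ± 0.48 for cabazitaxel resistance, with an adjusted p of 0.864. For the UGT2B genes and HSD3B1, listed at 0 in the DU145 lineage, such a difference is the C4-2B lineage's ratio spread over both lineages. SRD5A1 stood at 0.58 ± 0.41 (SE) for docetaxel resistance and 0.29 ± 0.41 for cabazitaxel resistance, with limma adjusted p of 0.930 and 0.919. In simulated data with this layout the docetaxel contrast recovered 0 of 50 genes changed by a log2 of 1, 8 of 50 at 2, 46 of 50 at 4 and 50 of 50 at 6.

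The other genes of androgen metabolism were read from lists of named genes. Of 11 genes of steroid entry and early synthesis 8 were measured, and 1, CYP11A1, was called lower in both TaxR and CabR against C4-2B. The share of all measured genes called lower there was 5.64% in TaxR and 6.2% in CabR. CYP11A1, the enzyme that cuts the side chain of cholesterol, had 0.273 FPKM in CabR, 1.17 in TaxR and 5.54 in C4-2B (ratios to C4-2B -2.36 and -1.59) and was listed at 0 in the DU145 lineage. CYP17A1, which makes the androgen precursors, stayed under 0.2 FPKM in all 6 libraries, with 0.0296 in CabR, a listed 0 in TaxR, 0.0735 in C4-2B, 0.196 in CTXR, 0.0619 in DTXR and a listed 0 in DU145. No gene of this list was past the rule in DTXR or CTXR against DU145. Its median ratio was -0.10 in CabR and 0.03 in TaxR to C4-2B, and 0.54 in CTXR and 0.08 in DTXR to DU145. CYB5A, the cytochrome that helps CYP17A1 make androgens, had 144 FPKM in CabR, 188 in TaxR and 190 in C4-2B, against 31.1 in CTXR, 21.1 in DTXR and 23.0 in DU145.

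Of 22 other steroid oxidoreductases 13 were measured. HSD17B6, which can turn androstanediol back into dihydrotestosterone, was called lower in both DU145 sublines, with 4.52 FPKM in CTXR, 1.24 in DTXR and 13.1 in DU145 (ratios -1.36 and -2.66). It had 2.55 FPKM in CabR, 1.08 in TaxR and 3.43 in C4-2B, and was the 1 gene of the list called lower in TaxR (-1.09). The share of all measured genes called lower in TaxR against C4-2B was 5.64%. In CabR against C4-2B no gene of the list was past the rule. In DTXR against DU145 1 was higher and 1 lower, where 5.37% of all measured genes were higher and 5.1% lower. In CTXR against DU145 1 was higher and 2 lower, where 7.45% of all measured genes were higher and 5.47% lower. The median ratio of the list was -0.32 in CabR and -0.40 in TaxR to C4-2B, and 0.10 in CTXR and -0.04 in DTXR to DU145. HSD17B8, named after its values were seen, had 25.5, 36.8 and 32.0 FPKM in CabR, TaxR and C4-2B and 3.75, 2.11 and 1.68 FPKM in CTXR, DTXR and DU145.

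Of 21 other genes of steroid conjugation and hydroxylation 3 were measured. UGDH, which makes the UDP-glucuronic acid that all UGT2B enzymes use, was called higher in both DU145 sublines where the 4 UGT2B members were listed at 0, with 145 FPKM in CTXR, 68.8 in DTXR and 23.7 in DU145 (ratios 2.57 and 1.50). In the C4-2B lineage UGDH had 13.4 FPKM in CabR, 16.7 in TaxR and 14.3 in C4-2B, with ratios to C4-2B of -0.09 and 0.21. SULT2B1, a sulfotransferase of cholesterol and hydroxysteroids named after its values were seen, had 15.2 FPKM in CabR, 7.85 in TaxR and 4.58 in C4-2B, higher in CabR at 1.54. It had 2.77 FPKM in CTXR and 2.15 in DU145 and was listed at 0 in DTXR. The list's median ratio was -0.09 in CabR and 0.21 in TaxR to C4-2B, and 0.26 in CTXR and -0.15 in DTXR to DU145, over 3 genes only. The share of all measured genes called higher was 7.45% in CTXR and 5.37% in DTXR against DU145, and 2.67% in CabR against C4-2B.

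Of 7 steroid uptake carriers 3 were measured. SLCO1B3, a liver carrier that takes up testosterone and also taxanes, was called higher in both DU145 sublines, with 10.3 FPKM in CTXR, 13.4 in DTXR and 0.812 in DU145 (ratios 2.64 and 2.99), and in the C4-2B lineage it was listed at 0 in CabR and C4-2B and had 0.0491 FPKM in TaxR. SLCO4A1, named after its values were seen, had 140 FPKM in CTXR against 8.81 in DTXR and 10.2 in DU145, higher in CTXR alone at 3.65 to DU145. In the C4-2B lineage SLCO4A1 had 26.0 FPKM in CabR, 27.2 in TaxR and 32.4 in C4-2B. The carrier list had 1 gene higher in CabR, none in TaxR, 2 in CTXR and 1 in DTXR, each against C4-2B or DU145, and none lower. Its median ratio was 0.00 in CabR, 0.07 in TaxR, 2.64 in CTXR and 0.00 in DTXR, over 3 genes. The share of all measured genes called higher in these comparisons was 2.67% in CabR, 2.52% in TaxR, 7.45% in CTXR and 5.37% in DTXR.

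**Figure D5:**
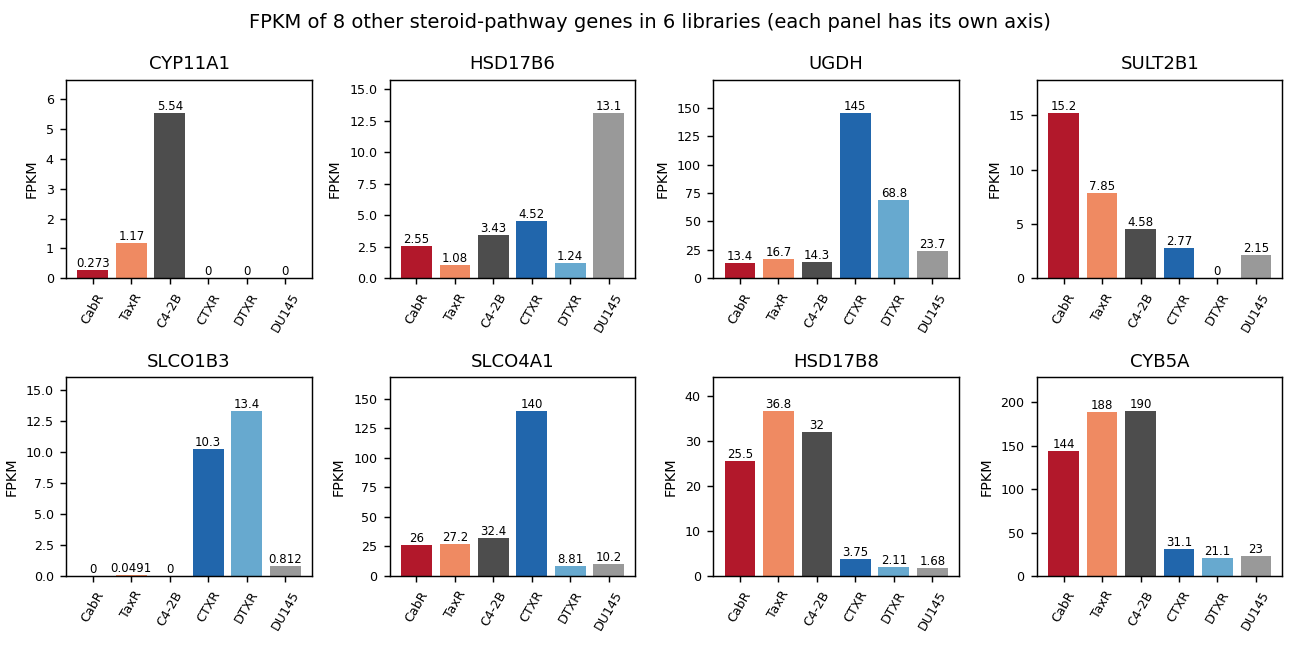
FPKM (vertical axis, one scale per gene) of 8 other genes of steroid metabolism and uptake in CabR, TaxR, C4-2B, CTXR, DTXR and DU145 (horizontal axis), 1 library per bar with its value printed. CYP11A1 has its highest bar in C4-2B, HSD17B6 in DU145, and UGDH and SLCO4A1 in CTXR.

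Androgen-responsive genes and targets of NRF2, a regulator known to act on AKR1C genes, were read from lists. KLK3, the prostate-specific antigen gene and a standard androgen-induced gene, had 841 FPKM in CabR, 3053 in TaxR and 3567 in C4-2B, called lower in CabR against C4-2B (-2.08) and against TaxR (-1.86). In the DU145 lineage KLK3 had 0.301 FPKM in CTXR and 0.148 in DTXR and was listed at 0 in DU145. Of 18 androgen-responsive genes 9 were lower and 1 higher in CabR against C4-2B, and 4 lower and 1 higher in TaxR against C4-2B, with medians of -1.18 and -0.43. Of all measured genes, 6.2% were lower and 2.67% higher in CabR, and 5.64% lower and 2.52% higher in TaxR. In CabR against TaxR 1.84% of all measured genes were lower and 1.75% higher. Of the 18 genes, 4 were lower and 1 higher in that comparison, with a median of -0.58. The higher one was KLK2, a standard androgen-induced gene named after its values were seen, with 936 FPKM in CabR, 368 in TaxR and 515 in C4-2B (1.35 for CabR to TaxR). The 4 UGT2B genes were higher in that comparison too, and in TaxR against C4-2B UGT2B15 stood at -0.68 and UGT2B17 at 0.09. SLC45A3 had 15.3 FPKM in CabR, 63.2 in TaxR and 155 in C4-2B, and NDRG1 57.3, 89.1 and 561 FPKM. MAF and ABCC4 were also lower in both sublines, at ratios to C4-2B of -3.08 and -1.36 in CabR and -2.76 and -1.89 in TaxR. In the DU145 lineage 4 of the 18 were lower in CTXR and 2 in DTXR against DU145, among them HERC3 and NDRG1 in both, with medians of 0.08 and 0.05. Of all measured genes 5.47% were lower in CTXR and 5.1% in DTXR.

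Of 15 NRF2 targets 14 were measured, and 5 were lower in CabR and 2 in TaxR against C4-2B, with none higher and medians of -0.66 and -0.54. Of all measured genes 6.2% were lower in CabR and 5.64% in TaxR. HMOX1, heme oxygenase, had 7.16 FPKM in CabR, 5.69 in TaxR and 47.8 in C4-2B, and SLC7A11, the cystine carrier, 4.47, 3.99 and 29.7 FPKM. In the DU145 lineage 5 were lower and 1 higher in CTXR, and 1 lower and 2 higher in DTXR, against DU145, with medians of -0.46 and 0.25. Among all measured genes 5.47% were lower and 7.45% higher in CTXR, and 5.1% lower and 5.37% higher in DTXR. ALDH3A1 was higher in both, with 4.69 FPKM in CTXR and 1.90 in DTXR against a listed 0 in DU145. The AKR1C sum given above was 5.83 FPKM in CTXR, 2.76 in DTXR and 3.68 in DU145, none of its ratios past the rule.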

How the data were processed

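RNA was measured in 6 cell lines, each with 1 library of stranded mRNA made from TRIzol-extracted total RNA, per the labels' protocols. The authors deposited FPKM for 60658 Ensembl gene identifiers per library, per the file headers. HISAT, StringTie, Cuffnorm and the build GRCh38 are named without versions or roles, per the submitters' processing notes. The sources used here do not name the annotation, the use of strand in counting or a joint scaling of libraries. FPKM are model-based estimates, so a listed 0 can be a failed estimate, and tests for counts were not applied.

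A total of 56550 identifiers were matched to a symbol table and 57047 to GENCODE 29, which gave coordinates and coding sequences. Promoters came from RefSeq. Groups follow the labels, which do not say whether lines were cultured more than once, so limma p-values measure only the spread between these libraries. Ratios used a pseudocount of 1 FPKM, and genes reaching 1 FPKM in at least 1 library were measured. limma 3.58.1 (R 4.3.3) was fitted to log2(FPKM + 1) with an intensity trend and was tested on simulated data. Depth was estimated from the most frequent low FPKM value, scaled by transcript length. It used 4716 values of single-transcript genes pooled over the libraries. The 10 genes and the lists were chosen with earlier results of these data known. All 10 were named. From each list up to 4 genes per lineage were named that were past the size rule in both resistant sublines in the same direction, plus the isoenzymes and KLK3, and some genes named by this rule are not reported here; others are marked as named after their values were seen. CYB5A, HSD17B8 and the chromosomal neighbours were also named after their values were seen. Alternatives were other pseudocounts, no filter, 3 rescalings, removal of the DU145 share from TaxR, whole families in the sums and limma without each library. Python 3.11.15 with numpy 2.4.6, pandas 2.3.3, Biopython 1.88 and matplotlib 3.10.9 was used.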

Additional observations from a re-analysis of the deposited data

Results flagged for a closer look

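SRD5A1 had opposite signs in the 2 lineages on docetaxel resistance, at a log2 ratio of -0.11 in TaxR against C4-2B and 1.26 in DTXR against DU145. SRD5A3 did so for both drugs, at -0.18 in TaxR against C4-2B and 0.66 in DTXR against DU145, and at -0.33 in CabR against C4-2B and 0.69 in CTXR against DU145. With 1 library per line these differences between the lineages were not tested, and only the ratio of SRD5A1 in DTXR is at least 1 in size.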

How the results depend on the processing

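Over the 60 log2 ratios of the 10 genes, no called ratio changed sign or lost its call under another pseudocount, a rescaling of the libraries or the removal of the DU145 share from TaxR, where each was tried. The removal could not alter the UGT2B genes and HSD3B1, which are listed at 0 in DU145. Uncalled ratios near 0 changed sign for AKR1C2 and AKR1C3 in DTXR against DU145 with upper quartiles made equal, and for SRD5A3 in CTXR against DTXR, to -0.07, with totals made equal without mitochondrial genes. All changes of a call came with a smaller pseudocount, which enlarges ratios at low FPKM and lets genes under 1 FPKM pass. Not all were of such genes, since UGT2B15 in CabR and C4-2B and AKR1C3 in CTXR and DU145 were above 1 FPKM. At 0.1 FPKM, 3 of the 10 were lower in TaxR against C4-2B (AKR1C2 added, at -1.87), where 11.0% of the measured genes were lower at that setting. There were 2 lower in CabR against C4-2B (AKR1C1 and AKR1C2, against 11.8%), 1 lower in CabR against TaxR (AKR1C3, against 6.57%) and 1 lower in DTXR against DU145 (AKR1C1, against 10.5%). In CTXR against DU145, 1 was higher (AKR1C3, 1.06, against 12.5%). In CTXR against DTXR, 1 was higher at 0.1 FPKM (AKR1C1, against 13.1%) and also 1 at 0.5 FPKM. UGT2B15 in CabR against C4-2B passed at 1.08 and 1.01. The share of measured genes higher in CabR against TaxR was 5.33% at 0.1 FPKM and 0.503% with no filter on low values. In limma, 1 gene was lower in cabazitaxel-resistant lines at 0.1 FPKM, and leaving out each library in turn gave 0 calls. Leave-one-out fits put the lowest adjusted p of the 10 genes between 0.606 and 0.964 for cabazitaxel resistance and between 0.803 and 1 for docetaxel resistance. A line left with no partner is assumed there to vary like the others. Lineage is a term of the fit, so each resistant line was set against the parent of its own lineage. With 1 library per line, no pairing of replicates between lines was possible. The largest shift of the median of all genes under a rescaling was -0.08, in CTXR against DU145.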
